A study of Xenopus laevis with 12 samples.

Results

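The genes described here encode the RNA splicing machinery of the frog Xenopus laevis. They are the genes whose symbol in the array's probe annotation begins with sf3, srsf, snrp, prpf, hnrn, u2af, srrm, lsm or rbm (the last pair followed by a digit), or is sf1, with the ending .L or .S for the copy on the long or the short chromosome of a homeologous pair. This gave 110 symbols of the 7531 on the array, from 90 distinct genes, of which 20 had both copies. Where a symbol had several probe sets, which held for 33 of the 110, the brightest on average was taken. The rule reads names only and no measured change, but the members were chosen with earlier results of these data known.

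Splicing removes introns from pre-mRNA in a spliceosome built anew on each intron from small nuclear ribonucleoproteins (snRNPs), each an snRNA wrapped in a ring of Sm or LSm proteins. SF1 and U2AF read the branch point and the end of the intron, the SF3 proteins hold the U2 snRNP on the branch point, and the PRPF proteins act mainly in the tri-snRNP and in rearranging the complex. SR proteins (SRSF) and hnRNPs bind the transcript and favour or disfavour the use of particular exons. RBM is a naming family of proteins with RNA recognition motifs that includes splicing regulators but also nucleolar, RNA decay and mRNA stability factors.

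Animal caps, the pluripotent ectoderm of the blastula, were cut at stage 8 to 9 from embryos that had received Geminin RNA and from uninjected embryos, and were profiled on 12 one-colour Affymetrix arrays. Geminin is a nuclear protein that restrains DNA replication licensing and binds chromatin regulators. The RNA injected is labelled xGeminin with its coil deleted (300 pg, into the animal side of both cells at the 2-cell stage, with no statement on whether each cell or each embryo got that amount). The 4 groups, with 3 arrays each, were uninjected caps at stage 10.5, Geminin-injected caps at stage 10.5, uninjected caps at stage 12 and Geminin-injected caps at stage 12, the stage being that of sibling embryos. Each sample pooled 80 explants cultured in 0.7x MMR, a frog saline, at 25 °C, and 20 µg of total RNA was taken. The controls were uninjected, and caps given another RNA were not analysed here. The injected and the uninjected array of an experiment form a pair, and each experiment was repeated 3 times per stage.

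Levels below are log2(intensity + 16) after quantile normalisation, and a change is a difference of such levels, which understates the change of dim probe sets. A change was called at a limma adjusted p under 0.05, over the 11618 of 15491 probe sets left after the dimmest 25% were dropped. Of the 110 symbols, 109 were tested, srrm2.S being too dim. The splicing genes were bright, with a median percentile of 93.5 for mean signal and 87 of 110 in the top 25%. Because each sample is bulk RNA, fewer cells of a type and less RNA per cell cannot be told apart.

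The Geminin probe set gmnn.L read from 3203 to 13754 in deposited intensity on the injected arrays and from 116 to 375 on 5 of the 6 uninjected arrays. On the array labelled uninjected, stage 12, experiment 3, it read 4576. The gmnn.S probe set read 250 there, against 50 and 261 on the other uninjected arrays of stage 12 and 145 to 513 on the injected ones. That array and its neighbour of experiment 2 correlated at r = 0.99, against 0.915 and 0.916 with experiment 1. The injected arrays of experiments 2 and 3 at stage 12 were similarly alike (r = 0.985, against 0.943 and 0.941 with experiment 1). Results at stage 12 are also given without the pair of experiment 3. The summed level of 13 ectoderm and epidermis marker probe sets was lower after injection, 10523 to 13743 against 16359 to 21940 at stage 10.5 and 16398 to 18679 against 24725 to 29499 at stage 12. Of these 13, 0 were called higher and 11 lower at stage 10.5. At stage 12, 10 were called lower and 2 higher, epcam.L and epcam.S. At stage 12 the 7 neural probe sets summed to 870 to 1435 in injected against 609 to 805 in uninjected caps, the 10 mesoderm probe sets to 376 to 491 against 233 to 318, and the 10 endoderm probe sets to 143 to 261 against 354 to 381. Members of the neural list moved in opposed directions at stage 12, where 4 probe sets rose and sox2.L fell by 1.24 (adjusted p = 0.0002231). At stage 10.5 the neural sums were 3333 to 3906 in injected and 3230 to 3937 in uninjected caps, with 0 higher and 2 lower, sox2.L (-1.38) and zic1.S (-1.16). Probe sets above the dimness filter were 13 of 13 for ectoderm, 5 of 7 for neural, 6 of 10 for mesoderm and 4 of 10 for endoderm. Of those 6 for mesoderm, only vegt.L and vegt.S were called at stage 12, both higher, and changes ran from -0.30 to 1.99. Of the 4 for endoderm, a2m.S and gata6.L were lower and 0 were higher, and changes ran from -1.23 to 0.39. The 4 blood and muscle probe sets, for cells that caps should not hold, summed to 50 to 72 at stage 10.5 and 61 to 178 at stage 12. The part of these cell types in the results below was not tested.

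At stage 10.5, injected caps had lower levels of 11 splicing genes and higher levels of 2 of the 109 tested. The genes that fell were 5 hnRNPs (hnrnpdl.L, hnrnpdl.S, hnrnpu.L, hnrnpa1.S and hnrnpa3.S), 4 RBM genes (rbm5.L, rbm5.S, rbm28.L and rbm34.L), prpf4b.L and sf3b5.S. The 2 that rose were lsm14b.L and rbm24.S. These are 10.1% lower and 1.83% higher, against a background of 7.06% and 3.31% of all probe sets tested (10.4% in either direction), so the shares lie near the background. The median change of the splicing genes was -0.09, against 0.05 over all probe sets. Without the pair as a block, limma called 0 of the 109 (10 at an unadjusted p under 0.05), against 2.26% of all probe sets. Without the pair of experiment 2 only hnrnpdl.L was called, at a change of -0.80 (adjusted p = 0.007686), and the share of all probe sets is not given for that run.

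Among hnRNPs, 5 of 20 fell (25%, against 7.06% of all probe sets) and 0 rose (against 3.31%). The median change was -0.28, negative under the deposited scale (-0.26) and under median centring (-0.24) as well. hnrnpdl, a relative of the AU-rich element binding protein hnRNP D, is encoded by a pair of copies that were both called. For hnrnpdl.L the levels in experiments 1, 2 and 3 were 11.18, 10.57 and 10.93 in uninjected caps and 10.46, 9.72 and 10.05 in injected caps. All 3 injected arrays lay below all 3 uninjected arrays, and the level fell by 0.82 ± 0.10 (limma SE, n = 3 pairs, adjusted p = 0.0004112). Here and in the text below, ± is the limma standard error. Its variance is pooled over all 12 arrays of both stages and drawn toward that of probe sets of similar intensity. It is therefore not the spread of the 3 pairs, which can be wider. hnrnpdl.S fell by 0.50 ± 0.11 (adjusted p = 0.01488), from 10.88, 10.74 and 10.22 to 10.41, 10.11 and 9.82. Its groups overlapped, though each injected array was below its partner.

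hnrnpu, a scaffold protein that binds chromatin and RNA, gave 11.30, 11.10 and 10.30 for hnrnpu.L in uninjected caps and 10.89, 10.32 and 9.30 in injected caps. Experiment 3 was lowest in both groups, which overlapped, while the paired change was -0.73 ± 0.14 (adjusted p = 0.004784). hnrnpa1.S and hnrnpa3.S encode A/B-type hnRNPs that often oppose SR proteins at exons. hnrnpa1.S went from 11.96, 11.87 and 11.10 to 11.62, 10.94 and 10.57, a change of -0.60 ± 0.12 (adjusted p = 0.006595), and hnrnpa3.S from 9.42, 9.25 and 8.59 to 8.83, 8.29 and 8.13, a change of -0.67 ± 0.14 (adjusted p = 0.008692). In both the pairs moved together and the groups overlapped. The other 15 hnRNP probe sets did not pass the test. Of those, hnrnpc.S had the most positive change, 0.20, and hnrnpr.S the most negative, -0.46.

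rbm5, a regulator of exon choice in apoptosis genes, fell in both copies. The levels of rbm5.L were 10.02, 9.75 and 9.57 in uninjected caps and 9.70, 8.77 and 8.78 in injected caps, and those of rbm5.S were 7.95, 8.51 and 8.10 against 7.88, 7.57 and 7.25. The groups overlapped for rbm5.L and not for rbm5.S, and in both copies experiment 1 moved least. The changes were -0.70 ± 0.15 (adjusted p = 0.0113) and -0.62 ± 0.18 (adjusted p = 0.0487). rbm28.L and rbm34.L belong to genes of nucleolar proteins with RNA recognition motifs. rbm34.L changed by -0.60 ± 0.16 (adjusted p = 0.03308) and rbm28.L by -0.47 ± 0.14 (adjusted p = 0.04801). The call of rbm28.L did not hold under the deposited scale and median centring, whereas the other 10 lower calls did. rbm24.S, whose product is known for splicing and mRNA stability in muscle, rose from 6.73, 5.84 and 6.60 to 7.26, 6.77 and 7.68, without overlap, by 0.84 ± 0.23 (adjusted p = 0.03724). The calls of rbm24.S, rbm34.L and rbm28.L were each lost whichever of the 3 pairs was left out.

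In the tri-snRNP and U2 classes 1 gene each passed the test. prpf4b.L encodes a kinase of the spliceosome and went from 7.42, 7.41 and 6.46 to 6.73, 6.29 and 5.99, a change of -0.76 ± 0.17 (adjusted p = 0.01288). sf3b5.S, a small SF3B subunit, went from 12.04, 11.92 and 11.51 to 11.69, 11.40 and 11.08, a change of -0.43 ± 0.08 (adjusted p = 0.005503). Both sets of groups overlapped and both genes fell in every pair. Of the 7 Sm core, 5 snRNP-specific, 14 SRSF, 2 tested SRRM and 3 U2AF and SF1 probe sets, 0 were called under limma, and 6 had an unadjusted p under 0.05.

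lsm14b.L was the second gene that rose. LSM14 proteins carry an LSm domain but act on stored and translationally repressed mRNA in the cytoplasm, not in the spliceosome. Its levels were 7.57, 7.68 and 8.92 in uninjected caps and 8.36, 8.56 and 9.46 in injected caps. Experiment 3 was highest in both groups, which overlapped, and the rise within pairs was 0.74 ± 0.15 (adjusted p = 0.00814). The difference for the .S copy was 0.55 and did not pass the test (adjusted p = 0.2799). Differences for the 7 ring subunits lsm2 to lsm8 lay between -0.38 (lsm3.S) and -0.04 (lsm8.S) and did not pass either.

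**Figure D1:**
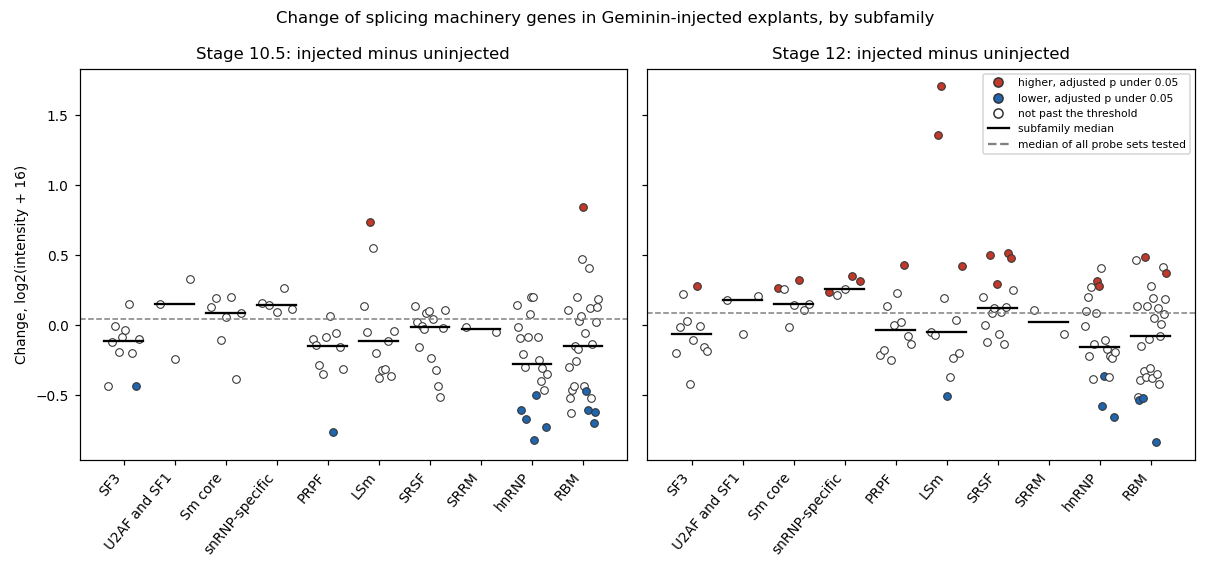
Each point is a splicing gene, placed by its mean paired change on the log2(intensity + 16) scale, injected minus uninjected, at stage 10.5 (left) and stage 12 (right), in 10 subfamilies. Filled points passed the test, bars are subfamily medians and the dashed line is the median of all probe sets tested; at stage 10.5 called points lie mostly among the hnRNP and RBM genes below 0, and at stage 12 the lsm14b copies stand highest at 1.36 and 1.70.

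At stage 12, 18 splicing genes were higher and 7 were lower in injected caps. The 18 were 4 SR protein probe sets (srsf5.S, srsf7.L, srsf7.S and srsf12.L), 5 snRNP proteins (snrpa.S, snrpb2.S, snrpc.S, snrpb.L and snrpd3.S), lsm14b.L, lsm14b.S, lsm8.S, hnrnpc.L, hnrnpc.S, prpf4b.S, sf3b4.L, rbm8a.S and rbm18.L. The 7 were hnrnpdl.L, hnrnpdl.S, hnrnpu.L, lsm3.S, rbm12b.3.L, rbm15.S and rbm34.L. These are 16.5% higher and 6.42% lower, against 23.5% and 17.6% of all probe sets tested (41.2% in either direction), so in both directions the share was below the background. Counts of higher and lower genes became 9 and 13 without normalisation, that is on the deposited scale, and 11 and 13 under median centring. In either direction these are 20.2% and 22% called, against 38.8% and 39.2% of all probe sets. The share of higher among called splicing genes was then 40.9% and 45.8%, against 72% with quantile normalisation, and over all probe sets 49.6% and 51.9% against 57.2%.

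Calls under all 3 scalings numbered 9 higher and 7 lower, a count that was not taken over all probe sets. Without the block, 2 genes were called, lsm14b.S (adjusted p = 0.009434) and rbm34.L (adjusted p = 0.04364), against 13% of all probe sets. Leaving out the pair of experiment 3, with the uninjected array high in gmnn.L, left 11 higher and 7 lower (16.5% called, against 38% of all probe sets). Leaving out the pair of experiment 1 or 2 left 12 in each case, and the share of all probe sets is not given for these runs.

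lsm14b showed the largest changes of any splicing gene at this stage. The levels of lsm14b.S in experiments 1, 2 and 3 were 5.91, 7.25 and 7.45 in uninjected caps and 8.77, 8.64 and 8.32 in injected caps. Those of lsm14b.L were 6.47, 7.77 and 7.62 against 8.07, 9.10 and 8.76. Neither copy overlapped between groups, and experiment 1 had the lowest uninjected level of both. The rise was 1.70 ± 0.28 for lsm14b.S (3.26-fold, adjusted p = 0.0008906) and 1.36 ± 0.15 for lsm14b.L (2.56-fold, adjusted p = 8.203e-05). Per pair, lsm14b.S rose by 2.86, 1.39 and 0.86, so experiment 1 contributed most.

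SR proteins, which recruit the snRNPs to exons, had 4 of 14 probe sets higher and 0 lower. That is 28.6% higher, against 23.5% of all probe sets. Their median was 0.12 (0.10 on the deposited scale and 0.11 under median centring), against 0.09 (0.03 and 0.04) over all probe sets. The brightest 25% of all probe sets, where most splicing genes lay, had medians of 0.15, 0.09 and 0.10. The share and the median of the SR proteins therefore lay near the background. For srsf7.S the levels were 11.30, 12.06 and 12.16 in uninjected caps and 12.20, 12.43 and 12.32 in injected caps. The groups did not overlap, and the rise was 0.48 ± 0.12 (adjusted p = 0.00815). For srsf7.L they were 9.03, 9.98 and 10.15 against 10.06, 10.69 and 9.96, a change of 0.52 ± 0.18 (adjusted p = 0.04169). Here experiment 3 moved the other way and the groups overlapped; on the deposited scale the call was lost. srsf12.L, from an SR protein gene related to srsf10, read 9.11, 9.51 and 9.61 against 9.86, 9.94 and 9.93 and rose by 0.50 ± 0.14 without overlap (adjusted p = 0.01314). srsf5.S rose by 0.30 ± 0.08 (adjusted p = 0.01326). The well-known members srsf1.L, srsf2.L and srsf3.S had differences of 0.20, 0.09 and 0.12, which did not pass the test.

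All 5 snRNP-specific probe sets had positive changes, between 0.22 and 0.35, and 3 passed the test (60% higher, against 23.5% of all probe sets). snrpc.S encodes the U1 C protein that steadies U1 on the 5′ splice site, and it rose by 0.32 ± 0.09 (adjusted p = 0.02025) from 11.46, 11.98 and 12.01 to 12.01, 12.18 and 12.22. snrpa.S, the U1 A protein, rose by 0.24 ± 0.08 (adjusted p = 0.02948), and its groups did not overlap, whereas those of snrpc.S did. snrpb2.S, the U2 B'' protein, rose by 0.35 ± 0.11 (adjusted p = 0.02848). Of the 7 Sm core probe sets, snrpb.L (0.27) and snrpd3.S (0.32) rose and 0 fell, so 28.6% were higher, near the 23.5% of all probe sets. snrpa.S, snrpb2.S, snrpb.L and snrpd3.S passed under quantile normalisation alone of the 3 scalings, and snrpa.S, snrpb2.S and snrpd3.S lost the call without the pair of experiment 3 (adjusted p = 0.05114, 0.06609 and 0.05275).

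The hnRNPs had 2 higher and 3 lower of 20 (25% called, against 41.2% of all probe sets), with a median of -0.16. Under the other scalings the medians were -0.27 and -0.26, with 1 higher and 5 lower each (30% called, against 38.8% and 39.2%). hnrnpdl.L read 10.73, 10.82 and 10.92 in uninjected caps and 10.16, 10.11 and 10.47 in injected caps, with no overlap. It fell by 0.58 ± 0.10 (adjusted p = 0.001324), and hnrnpdl.S fell by 0.36 ± 0.11 (adjusted p = 0.02402). hnrnpu.L read 11.05, 9.50 and 9.71 against 10.63, 8.82 and 8.84, a change of -0.66 ± 0.14 (adjusted p = 0.003081). Experiment 1 stood above the others in both groups, which overlapped. hnrnpc, whose product packages nascent transcripts and binds uridine tracts, had hnrnpc.L higher by 0.32 ± 0.11 (adjusted p = 0.03422) and hnrnpc.S by 0.28 ± 0.10 (adjusted p = 0.04999), the latter under quantile normalisation alone. Without the pair of experiment 3 both lost the call (adjusted p = 0.07504 and 0.1984), as did prpf4b.S (0.43, then adjusted p = 0.1316) and sf3b4.L (0.28, then adjusted p = 0.07488). prpf4b.S and sf3b4.L also passed under quantile normalisation alone of the 3 scalings.

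Of 27 RBM probe sets, 2 rose and 3 fell (18.5% called, against 41.2% of all probe sets). The counts were 1 and 6 on the deposited scale (25.9%, against 38.8%) and 2 and 6 under median centring (29.6%, against 39.2%). rbm34.L read 9.24, 8.73 and 8.65 in uninjected caps and 8.04, 7.92 and 8.15 in injected caps. The groups did not overlap, and it fell by 0.83 ± 0.16 (adjusted p = 0.0021). rbm15.S, from a gene of the m6A writer complex, changed by -0.52 ± 0.18 (adjusted p = 0.0364) and rbm12b.3.L by -0.53 ± 0.18 (adjusted p = 0.03595). rbm8a.S, an exon junction complex core gene, rose by 0.37 ± 0.12 (adjusted p = 0.02521) and rbm18.L by 0.49 ± 0.14 (adjusted p = 0.01852). On the deposited scale rbm8a.S lost the call. Without the pair of experiment 3, rbm15.S and rbm18.L lost the call (adjusted p = 0.1129 and 0.08419). In the LSm ring, lsm3.S, shared by the nuclear and cytoplasmic rings, fell by 0.51 ± 0.14 (adjusted p = 0.01348), while lsm8.S, particular to the nuclear ring on U6, rose by 0.42 ± 0.14 (adjusted p = 0.03027). lsm3.S read 9.87, 10.18 and 10.25 against 9.37, 9.70 and 9.70 with no overlap, and lsm8.S overlapped. Without the pair of experiment 3, lsm3.S lost the call (adjusted p = 0.05333).

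**Figure D2:**
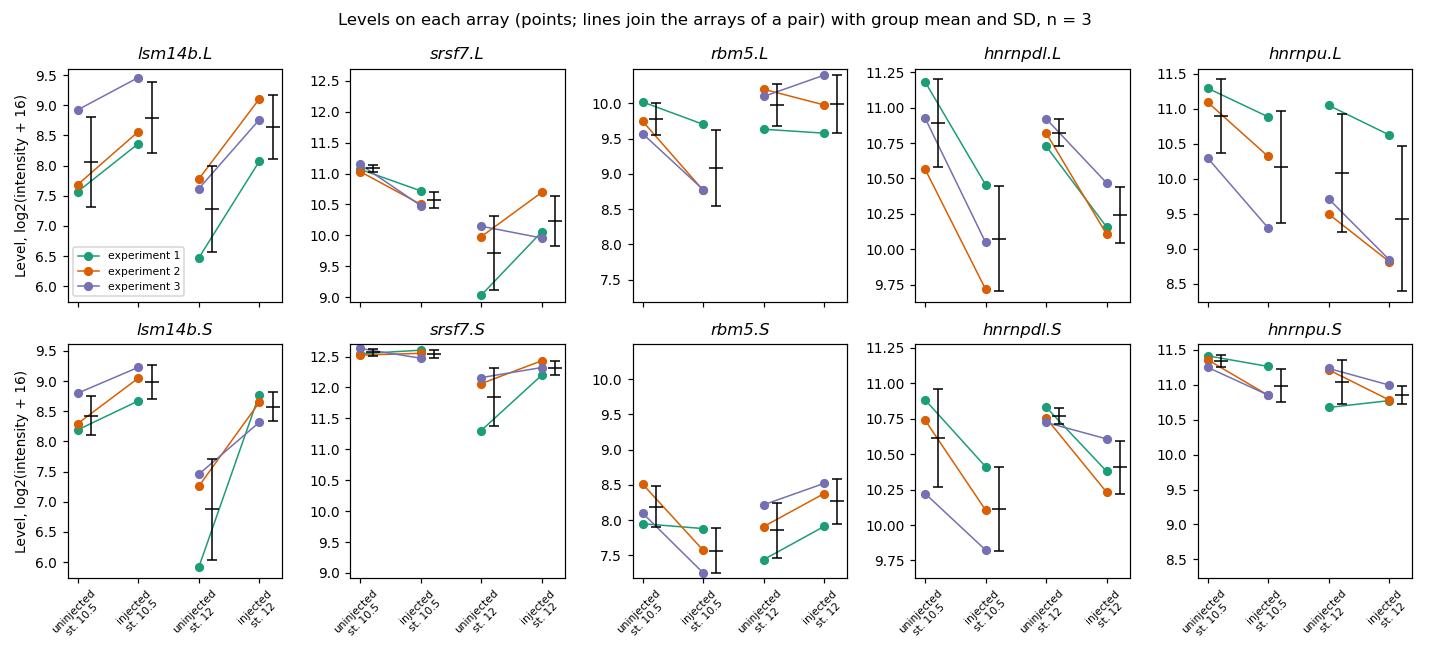
Levels of the .L (top) and .S (bottom) copies of lsm14b, srsf7, rbm5, hnrnpdl and hnrnpu on all 12 arrays, on the log2(intensity + 16) scale after quantile normalisation, with lines joining the arrays of a pair and bars giving the group mean ± SD (n = 3). The pairs run in parallel for hnrnpdl and hnrnpu.L, both lsm14b copies rise in every pair, and rbm5 falls at stage 10.5 but not at stage 12; scales differ between genes.

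The difference between the injection effects at the 2 stages was tested directly. It was called for rbm5.S and srsf7.L, both more positive at stage 12, which is 2 of 109 higher and 0 lower against 1.8% and 3.97% of all probe sets (5.77% in either direction). The injection effect on rbm5.S was -0.62 at stage 10.5 and 0.41 at stage 12 (adjusted p = 0.08285 at stage 12), a difference of 1.03 ± 0.25 (adjusted p = 0.03651). That on srsf7.L was -0.51 (adjusted p = 0.1072) and 0.52, a difference of 1.03 ± 0.26 (adjusted p = 0.04112). Without the block 0 were called, with adjusted p = 0.3956 for both genes. srsf7.L also lost the call on the deposited scale (adjusted p = 0.06027) and under median centring (adjusted p = 0.05799), whereas rbm5.S kept it in both. Of the runs that left out 1 pair, rbm5.S kept its call in 2 of 6 and srsf7.L in 1 of 6. Neither copy of lsm14b differed between stages under the test, with differences of 0.62 (adjusted p = 0.1073) for lsm14b.L and 1.15 (adjusted p = 0.1153) for lsm14b.S; without stage 12 experiment 3 that of lsm14b.S was 1.57 (adjusted p = 0.02591).

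For the 20 genes with both copies, the change of the .L copy minus that of the .S copy was tested among 794 such gene pairs. At stage 10.5, 2 of 20 differed, against 6.8% of all pairs. The effect on hnrnpa1 was -0.09 in .L and -0.60 in .S (difference 0.51 ± 0.11, adjusted p = 0.01319), and that on srsf7 -0.51 in .L and -0.02 in .S (difference -0.49 ± 0.13, adjusted p = 0.03379). At stage 12, 2 of 20 differed, against 24.8%, and they were hnrnpa1 (0.42 ± 0.11, adjusted p = 0.01458) and hnrnpu (-0.47 ± 0.12, adjusted p = 0.01679). The copies of lsm14b did not differ under the test at either stage (adjusted p = 0.7713 and 0.3319). Without the block, 0 pairs were called at either stage. The hnrnpa1 difference depended on the probe set, since 2 other probe sets annotated to hnrnpa1.L gave -0.68 and -0.49 at stage 10.5. Whether a probe set also bound the transcript of the other copy was not tested.

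**Figure D3:**
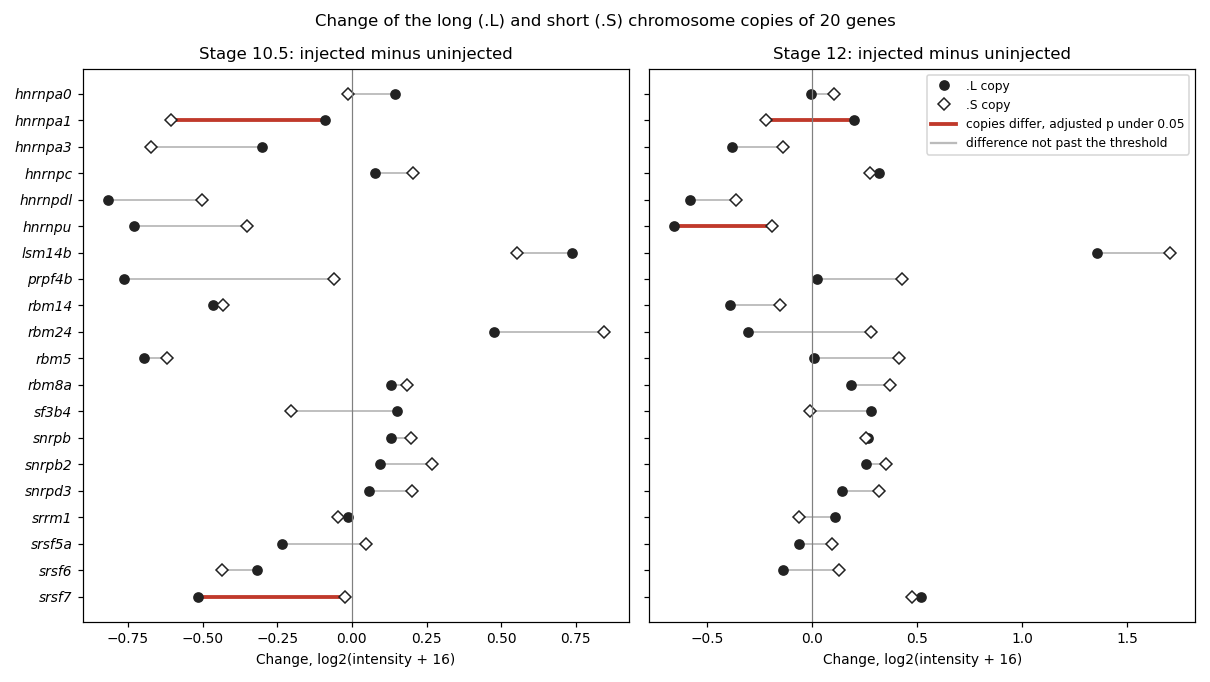
Change of the .L copy (filled circle) and .S copy (open diamond) of 20 splicing genes, injected minus uninjected, on the log2(intensity + 16) scale at stage 10.5 (left) and stage 12 (right). Thick red lines join copies whose changes differed at an adjusted p under 0.05, which are hnrnpa1 and srsf7 at stage 10.5 and hnrnpa1 and hnrnpu at stage 12.

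Among other members with several probe sets, agreement varied. The second probe set of rbm5.L gave -0.63 at stage 10.5, close to the -0.70 of the brightest, and that of prpf4b.L by -0.64 against -0.76. By contrast hnrnpk.S, chosen with sf3b1.S after their values were seen, gave -0.40 by its brightest probe set and 0.37 by the other, and sf3b1.S gave -0.19 against -0.85 and -0.66. All 158 tested probe sets of the splicing genes were also counted, so some genes count more than once. At stage 10.5, 2 of the 158 were higher and 21 lower, against 3.31% and 7.06% of all probe sets on the array that were tested. At stage 12, 22 of the 158 were higher and 16 lower, against 23.5% and 17.6%.

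Between stages, 8 splicing genes were higher and 14 were lower at stage 12 in uninjected caps. These are 7.34% and 12.8%, against 15.2% and 16.5% of all probe sets (31.7% in either direction). In injected caps, 7 were higher and 6 lower, or 6.42% and 5.5% against 7.82% and 8.49% (16.3% in either direction). Both stage comparisons share arrays with the injection comparisons, so their values are given side by side only. The direction of the whole group depended on how arrays were scaled, since deposited medians ran from 49.05 to 145.68. The deposited scale called 1 higher and 3 lower in uninjected caps (0.917% and 2.75%, against 4.24% and 7.59% of all probe sets). In injected caps it called 0 higher and 3 lower (0% and 2.75%, against 1.12% and 3.49%). Median centring called 36 higher and 5 lower in uninjected caps (33% and 4.59%, against 20.7% and 12.5%). In injected caps it called 36 higher and 3 lower (33% and 2.75%, against 13.1% and 7.25%).

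The median of all probe sets itself moved with the scaling, from -0.23 on the deposited scale to -0.04 with quantile normalisation and 0.12 with median centring in uninjected caps, and from -0.20 to 0.02 and 0.14 in injected caps. Relative to it, the splicing genes stood at 0.34, 0.12 and 0.34 in uninjected caps and at 0.39, 0.16 and 0.39 in injected caps. The SF3, U2AF and SF1, PRPF, RBM, SRRM and hnRNP medians were positive under all 3 scalings. That of the snRNP-specific genes in uninjected caps was -0.22 with quantile normalisation but 0.26 on the deposited scale and 0.60 with median centring, and there those of the SRSF, Sm core and LSm genes also changed sign.

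**Figure D4:**
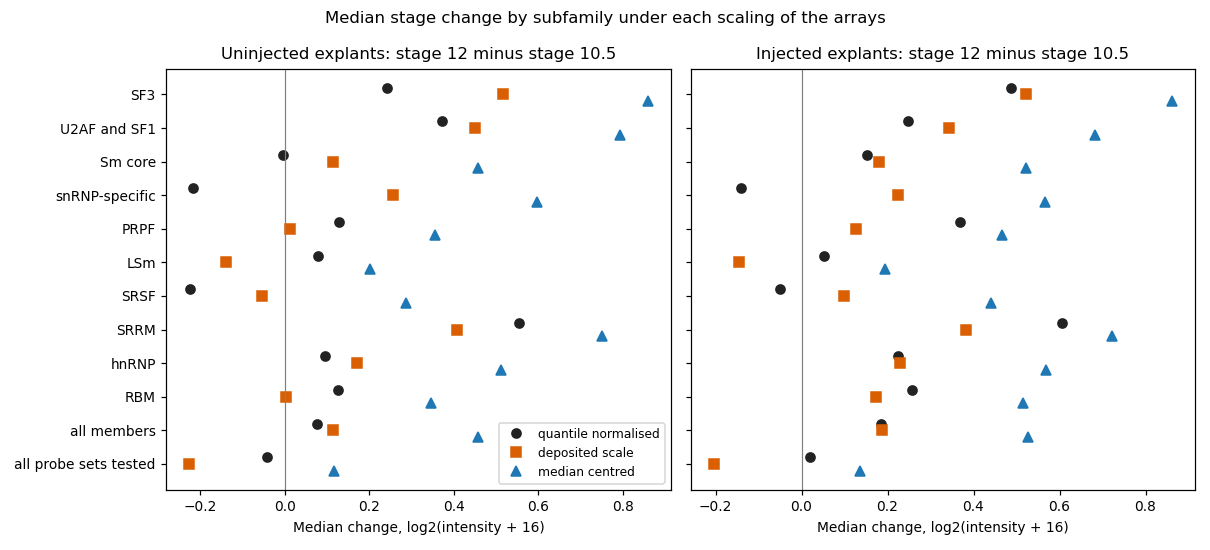
Median change from stage 10.5 to stage 12 of each subfamily, of all splicing genes and of all probe sets tested, on the log2(intensity + 16) scale, for uninjected (left) and injected (right) caps under 3 scalings of the arrays. Median centring gives the highest value in every row, and the snRNP-specific genes go from -0.22 to 0.60 in uninjected caps.

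The stage calls that held under all 3 scalings were 1 higher and 3 lower in uninjected and 2 lower in injected caps. That count was not taken over all probe sets. In uninjected caps sf3b2.L, an SF3B subunit that holds U2 at the branch point, was higher, at 9.13, 8.03 and 8.84 at stage 10.5 and 10.51, 9.90 and 9.87 at stage 12. The groups did not overlap, and the rise was 1.43 ± 0.42 (adjusted p = 0.02262). The call of sf3b2.L was lost without the stage 10.5 array of experiment 2 or the stage 12 array of experiment 1 (limma adjusted p up to 0.08796). hnrnpa2b1.L went from 6.85, 7.55 and 7.07 to 5.31, 5.74 and 5.68, a fall of 1.58 ± 0.24 (adjusted p = 0.0004696). rbm11.L, from a gene known as a tissue-restricted splicing factor in mammals, went from 6.44, 6.57 and 6.63 to 4.51, 4.96 and 5.18, a fall of 1.66 ± 0.22 (adjusted p = 0.0001808). For both genes all 3 later values lay below all 3 earlier ones.

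lsm14b.S fell between stages in uninjected caps by 1.56 ± 0.36 (adjusted p = 0.006327). In injected caps the difference was -0.40 ± 0.36 (adjusted p = 0.4858), and its stage 12 levels of 8.32 to 8.77 overlapped the 8.67 to 9.23 of stage 10.5. srsf7.L had stage differences of -1.36 ± 0.27 (adjusted p = 0.002713) in uninjected and -0.33 ± 0.27 (adjusted p = 0.4457) in injected caps. The difference between these stage changes is the difference of injection effects tested above. On the deposited scale srsf7.L lost its stage call in uninjected caps (limma adjusted p = 0.08309). In injected caps rbm11.L fell by 1.31 ± 0.22 (adjusted p = 0.002115) and rbm24.S by 1.57 ± 0.33 (adjusted p = 0.0082), from 7.26, 6.77 and 7.68 to 6.18, 5.19 and 5.63. The deposited stage 12 intensities of rbm11.L were low there too, at 19.92, 28.52 and 21.84.

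Several further stage calls rested on quantile normalisation or failed on the deposited scale. rbm14.L, from a gene of a nuclear paraspeckle protein, had a change of 1.33 ± 0.30 (adjusted p = 0.00607) in uninjected and 1.40 ± 0.30 (adjusted p = 0.008812) in injected caps. u2af1.S, the small U2AF subunit that reads the 3′ splice site, had 0.89 ± 0.29 (adjusted p = 0.03664) and 1.06 ± 0.29 (adjusted p = 0.0283). rbm7.L, of the nuclear exosome targeting complex, had -1.19 ± 0.23 (adjusted p = 0.002249) and -1.13 ± 0.23 (adjusted p = 0.006385). snrpa1.S, the U2 A' protein, had -0.59 with quantile normalisation and 0.13 with median centring in uninjected caps, so its direction is not settled. In uninjected caps, without the array of stage 12 experiment 3, 4 were higher and 13 lower, and u2af1.S lost its call (adjusted p = 0.08655). The share of all probe sets is not given for that run.

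Genes of the pathway outside these naming families were described from 7 lists. The SMN complex and snRNP assembly list, whose products load the Sm ring onto snRNA, had 2 of 14 higher and 0 lower at stage 10.5 (14.3% higher, against 3.31% of all probe sets) and 7 higher and 1 lower at stage 12 (50% and 7.14%, against 23.5% and 17.6%), with medians of 0.23 and 0.40 (0.18 and 0.35 on the deposited scale). prmt5.L, which methylates Sm proteins, rose by 0.98 ± 0.17 (adjusted p = 0.002966) at stage 10.5 and 0.78 ± 0.17 (adjusted p = 0.004099) at stage 12. gemin2.S rose by 1.47 ± 0.23 (adjusted p = 0.0005525) and smn1.L by 0.61 ± 0.10 (adjusted p = 0.0006825) at stage 12, while wdr77.S, the partner of PRMT5, fell by 0.74 ± 0.24 (adjusted p = 0.02861). At stage 12 the list had 5 higher and 1 lower under either other scaling (35.7% and 7.14%). Over all probe sets these shares were 19.3% and 19.6% on the deposited scale and 20.3% and 18.8% under median centring. In both stage comparisons 5 of the 14 (35.7%) were lower at stage 12 and 0 higher, against 16.5% of all probe sets lower in uninjected and 8.49% in injected caps. On the deposited scale 2 and 3 were lower (14.3% and 21.4%, against 7.59% and 3.49% of all probe sets). Under median centring 4 and 4 were lower (28.6% each, against 12.5% and 7.25%). smn1.S, for example, changed by -1.87 in uninjected and -1.78 in injected caps. Without the block limma called 0 of the 14 in either injection comparison (1 and 5 at an unadjusted p under 0.05), against 2.26% and 13% of all probe sets. Without stage 12 experiment 3 the count at stage 12 was 4 higher and 0 lower (28.6% called, against 38% of all probe sets in either direction). Over all 11618 probe sets that fit called 2497 higher and 1919 lower.

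The list of tissue and alternative splicing regulators had 0 higher and 4 lower of 26 at stage 10.5, and 2 higher and 5 lower at stage 12. The shares called were 15.4% and 26.9%, against 10.4% and 41.2% of all probe sets. esrp1.L, the epithelial splicing regulator, fell by 1.61 ± 0.25 (adjusted p = 0.0005822) at stage 12, and had risen by 1.61 ± 0.27 (adjusted p = 0.0009155) between the stages in uninjected caps. The ectoderm marker sum moved the same way in both comparisons, but not all of its 13 probe sets did. After injection at stage 12, 10 of them were called lower and 2 higher. Between stages in uninjected caps, 7 were called higher and 4 lower. At stage 10.5 that sum was also lower after injection, but esrp1.L was not called. Whether esrp1.L and the ectoderm markers are linked was not tested. ptbp1.S, a repressor of exons, fell by 0.75 ± 0.16 (adjusted p = 0.01224) and 0.76 ± 0.16 (adjusted p = 0.003784) at the 2 stages, elavl3.L by 1.31 ± 0.25 (adjusted p = 0.005559) and 0.92 ± 0.25 (adjusted p = 0.01275), and tardbp.L by 0.47 ± 0.12 (adjusted p = 0.02645) and 0.79 ± 0.12 (adjusted p = 0.0005206). tra2b.S, an SR-like activator, rose by 0.46 ± 0.10 (adjusted p = 0.004676) at stage 12. Without the block 2 of 26 were lower and 0 higher at stage 12 (7.69% called in either direction). Over all 11618 probe sets that fit called 894 lower and 615 higher (13% in either direction). At stage 10.5 limma without the block called 0 of the list (2 at an unadjusted p under 0.05).

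The remaining lists are set against shares called of 10.4% at stage 10.5 and 41.2% at stage 12 over all probe sets. On the deposited scale these shares were 11% and 38.8%, and under median centring 10.8% and 39.2%. For U1, U5 and tri-snRNP proteins the counts were 0 higher and 1 lower of 20 at stage 10.5 and 1 higher and 3 lower at stage 12 (5% and 20% called), with snrnp200.L, the helicase that unwinds U4 from U6, at -0.64 ± 0.18 (adjusted p = 0.03738) and -0.86 ± 0.18 (adjusted p = 0.002942). The Prp19-associated complex and step factors had 0 higher and 1 lower of 24 and then 1 and 1, and the exon junction and export list 0 of 18 and then 2 higher and 2 lower. Splicing helicases had 0 of 10 and then 1 higher, and SR kinases and phosphatase 0 of 7 and then 1 higher and 1 lower. Either other scaling called 0 helicases at stage 12, 1 kinase or phosphatase higher and 2 lower at stage 12, 1 higher and 1 lower of the U1, U5 and tri-snRNP list at stage 10.5, and for the Prp19-associated list 0 higher and 3 lower and then 1 and 2. In the test of the difference between stages 0 genes of these lists were called by limma with quantile normalisation, while the injection effect on esrp1.L was called more negative at stage 12 than at stage 10.5 on the deposited scale and under median centring (-1.57 in both, adjusted p = 0.03428 and 0.03323), and that on ppih.L, of the U1, U5 and tri-snRNP list, on the deposited scale alone (-0.75, adjusted p = 0.04558).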

How the data were processed

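The authors' deposited table holds 1 intensity per probe set and array (12 arrays, 15491 probe sets). How probes were summarised and scaled is not stated there or in the labels. From it, log2(intensity + 16) was quantile normalised, because array medians differed by 1.31 on the log2 scale (limit 0.2), and probe sets in the lowest 25% of mean signal were dropped. limma 3.58.1 under R 4.3.3 (functions lmFit and eBayes, prior variance following intensity) was fitted to all arrays, with the experiment within a stage as a block for injection (4 residual degrees of freedom) and with 4 group means for stage (8). P-values were Benjamini-Hochberg adjusted over all probe sets tested, and the code was tested on simulated data. The design text calls injected and uninjected samples of an experiment paired. Deviations of same-numbered arrays from their group means correlated at 0.765 to 0.797 at stage 10.5 and 0.424 to 0.693 at stage 12, where experiments 2 and 3 also correlated across numbers (0.497 and 0.555). Replicates are whole experiments repeated, and precision is limited by how few arrays there are. The label file name of the uninjected array of stage 12, experiment 2 carries stage 10.5, and its title was followed.

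Probe sets with 1 symbol numbered 9304, with several 195 and with none 5992, and 3 probe sets naming several symbols that include splicing genes were left out. Genes named are, per comparison, up to 10 called splicing genes per direction with the largest change (for injection, of 1 sign in all 3 pairs), the 2 brightest of each subfamily, subfamilies of 5 or fewer, and their .L or .S partners. Called genes beyond that were named to complete each list of calls. The members and lists were chosen with earlier results of these data known.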

Additional observations from a re-analysis of the deposited data

Results flagged for a closer look

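For rbm5.S and srsf7.L the injection effect differed between stage 10.5 and stage 12 by the test of that difference. They are 2 of 109 splicing genes (1.83%), against 5.77% of all probe sets. Both lost the call without the block (limma adjusted p = 0.3956) and in most runs that left out 1 pair. rbm5.S moved from -0.62 to 0.41, a difference of 1.0331 on the log2 scale, and srsf7.L from -0.51 to 0.52, a difference of 1.0306. The injected level of rbm5.S was below its partner in 3 of 3 pairs at stage 10.5 and above it in 3 of 3 at stage 12. For srsf7.L these counts were 3 of 3 and 2 of 3. The counts come from the arrays that the test used, so they are no separate support.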

How the results depend on the processing

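The fit without the replicate block called 0 splicing genes at stage 10.5, 2 at stage 12, 0 for the difference between stages and 0 and 0 copy pairs, and without the block and the uninjected array of stage 12, experiment 3 it called 0, 1 and 0. The deposited scale gave 1 for the difference, 4 and 3 for the stage change in uninjected and injected caps, and 1 copy pair at stage 10.5. Median centring gave 1 for the difference and 41 and 39 for the stage changes. Without the intensity trend, stage 12 had 13 and the difference 1. With all probe sets of the splicing genes, stage 10.5 had 23 and stage 12 had 38, out of 158 tested in place of 109. A pseudocount of 1 left 0 for the difference (limma, 19 of 109 at an unadjusted p under 0.05 in the reported fit). A block across stages gave 25 in injected caps. Averaging experiments 2 and 3 of stage 12 gave 15 at stage 12 and 1 for the difference. Counts in this paragraph and the next are of splicing genes or their copy pairs alone. Where the text gives no share over all probe sets for a fit, a lower count cannot be told from fewer calls on the whole array.

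Leaving out 1 pair gave 8, 1 and 10 calls at stage 10.5 (without experiment 1, 2 and 3), 12 to 18 at stage 12, 0 to 4 for the difference, and 0 to 2 copy pairs at each stage. For the difference, the run without the stage 12 pair of experiment 1 called 0 higher and 2 lower. The reported fit called 2 higher and 0 lower, so both the genes and their direction changed. Leaving out 1 array gave 6 to 12 in injected and 15 to 21 in uninjected caps for the stage change. For the 67 genes named by the rule above, called values were checked for a turn of sign between the reported and the other fits. Among these, signs turned only under median centring and only in the stage comparisons. The other splicing genes were not part of that check. Values called in neither fit also turned on the deposited scale, as did the median of the splicing genes at stage 12 (0.03, then -0.06, and -0.04 under median centring). The called values of those named genes that turned were, in uninjected caps, hnrnpa1.L (0.18), hnrnpdl.L (0.52), rbm8a.L (0.75), snrpa.S (0.60), snrpa1.S (0.13), snrpb.L (0.69), snrpb.S (0.80), snrpc.S (0.81), srsf2.L (0.68), srsf5.S (0.18) and srsf7.S (0.12). In injected caps they were snrpa.S (0.57), snrpa1.S (0.13) and srsf7.S (0.54). The cause was not tested.

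Among the 67 named genes, 40 calls of injection effects or of their difference were made, of which 2 were kept without the block and 38 lost. Over all comparisons, the deposited scale kept 35 of 75 calls, median centring 54 and the fit without the intensity trend 53. The other settings for filter and pseudocount kept 63 to 70 of 75 calls, or 65 of 66 with the stricter filter. With 3 arrays a group, the deposited intensities carry no count of molecules, and low probe sets near 4.43, the 5th percentile of all values, are close to the floor of 4.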
